A study of Mus musculus with 10 samples.

Results

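B cell and myeloid lineage genes were read on 10 Affymetrix Mouse Genome 430 2.0 arrays of sorted mouse CD4+ T cells, as a measure of transcripts that belong to cells other than T cells. The genes were 36 of the 18194 with a probe set of their own, namely 15 of B cells and 21 of myeloid cells. They were grouped by lineage. A gene with several probe sets was read from its brightest one on average, and genes with low values were kept in the description.

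B cells recognise antigen through membrane immunoglobulin, which signals through the CD79a and CD79b chains into a chain of kinases and adaptors. The transcription factors EBF1 and PAX5 commit progenitors to that lineage. Myeloid cells such as macrophages, dendritic cells and neutrophils depend on the transcription factor PU.1 (Spi1), and many of their receptors have no signalling tail of their own and couple to the adaptors DAP12 (Tyrobp) or FcRγ (Fcer1g). The spleen, from which these T cells came, is rich in B cells and also holds macrophages and dendritic cells.

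Starting cells were sorted from spleen as CD4+ and as GFP+ or GFP-. GFP marks cells with an active Foxp3 promoter in DEREG mice, which carry it on a transgene. All cultures were stimulated through CD3 and CD28, given a pGCSamIN retrovirus that carries an NGFR marker, and sorted again as NGFR+. There were 5 groups of 2 arrays. Scurfy Foxp3 denotes GFP+ cells of DEREG/Scurfy mice labelled as given the Foxp3 virus, and scurfy mock the same cells labelled as given the empty one. The scurfy strain carries a mutated Foxp3 gene. Treg denotes GFP+ cells of DEREG mice with the empty virus. Tconv Foxp3 and Tconv mock denote GFP- cells of DEREG mice labelled with the Foxp3 or the empty virus. The sample descriptions write D_S for the scurfy groups, read here as DEREG/Scurfy, while the strain field gives DEREG on Balb/c for all 10 arrays. Age and sex were not given, and nothing says that the 2 arrays of a group came from separate mice or cultures. The p-values thus cover the spread between arrays, which may be technical.

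Values are intensities on a linear scale, with an array median between 18.8 and 36.5, and they were not scaled to a common level. The T cell identity of the material was clear on every array, with Cd3e between 2965 and 4070 and Cd4 between 1985 and 4023. The summed intensity of 14 T cell genes lay between 27822 and 39771. The Foxp3 probe set read 948 and 691 on the scurfy Foxp3 arrays against 1188 and 1114 on the scurfy mock arrays, and 18.0 and 18.9 on the Tconv Foxp3 arrays against 53.9 and 35.9 on the Tconv mock arrays. It was thus not higher on the arrays labelled Foxp3. Where the probe set lies in the transcript is not known, so it may not read the viral copy, and "Foxp3" in a group name below stands for the label. Replicates correlated least in the scurfy mock group (r = 0.921 across genes), and the scurfy Foxp3 pair had most genes apart by over 1 log2 unit, 1783 of 11319.

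The B cell genes were few and weak on most arrays and had their highest sum on scurfy Foxp3 array 2. Scurfy Foxp3 array 1 and Treg array 2 came next and were nearly level. Their summed intensity was 1654 and 5001 on the scurfy Foxp3 arrays, 171 and 656 on the scurfy mock arrays, 347 and 1630.4 on the Treg arrays, 760.5 and 877 on the Tconv Foxp3 arrays and 415 and 174 on the Tconv mock arrays. Of the 15 genes, 11 and 14 lay above the array median on the scurfy Foxp3 arrays, 1 and 9 on the scurfy mock arrays, 2 and 11 on the Treg arrays, 9 and 9 on the Tconv Foxp3 arrays and 3 and 1 on the Tconv mock arrays. The groups thus did not form a simple order, since within the scurfy mock and Treg groups array 2 read clearly higher than array 1. At their highest, on scurfy Foxp3 array 2, the 15 genes made up 0.0455% of the total intensity of the array. In bulk material a smaller number of cells of a type and less RNA per cell cannot be told apart.

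The 21 myeloid genes showed a narrower pattern, in which only the scurfy Foxp3 arrays stood apart. Cst3 alone made up most of their sum, so it was left out of it. The summed intensity of the other 20 genes was 844 and 1101 on the scurfy Foxp3 arrays, 229 and 241 on the scurfy mock arrays, 216 and 388 on the Treg arrays, 167 and 177 on the Tconv Foxp3 arrays and 283 and 135 on the Tconv mock arrays. The 2 scurfy Foxp3 arrays lay above the other 8 in that sum. The sum of 36 further myeloid genes did not set them apart, but the median of those genes did. It was 6905 and 5886 on the scurfy Foxp3 arrays and 6829 and 4219 on the scurfy mock arrays. The Treg arrays had 4450 and 6829, the Tconv Foxp3 arrays 3043 and 2951, and the Tconv mock arrays 4949 and 2986. Ctss alone gave 3105 and 2385 of this sum on the scurfy Foxp3 arrays, 4392 on scurfy mock array 1 and 3708 on Treg array 2. The median log2(intensity + 16) of the 36 genes was 5.51 and 5.02 on the scurfy Foxp3 arrays. On the other arrays it was at most 4.83, on Treg array 2. Class II antigen presentation genes, which B cells and myeloid cells share, summed to 7580.3 and 9824 on the scurfy Foxp3 arrays, 1404 and 3969.8 on the scurfy mock arrays, 800.2 and 5763 on the Treg arrays, 2405 and 2710.4 on the Tconv Foxp3 arrays and 1544 and 1142 on the Tconv mock arrays. Both scurfy Foxp3 arrays and Treg array 2 were the highest for the B cell genes and for the class II genes.

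**Figure D1:**
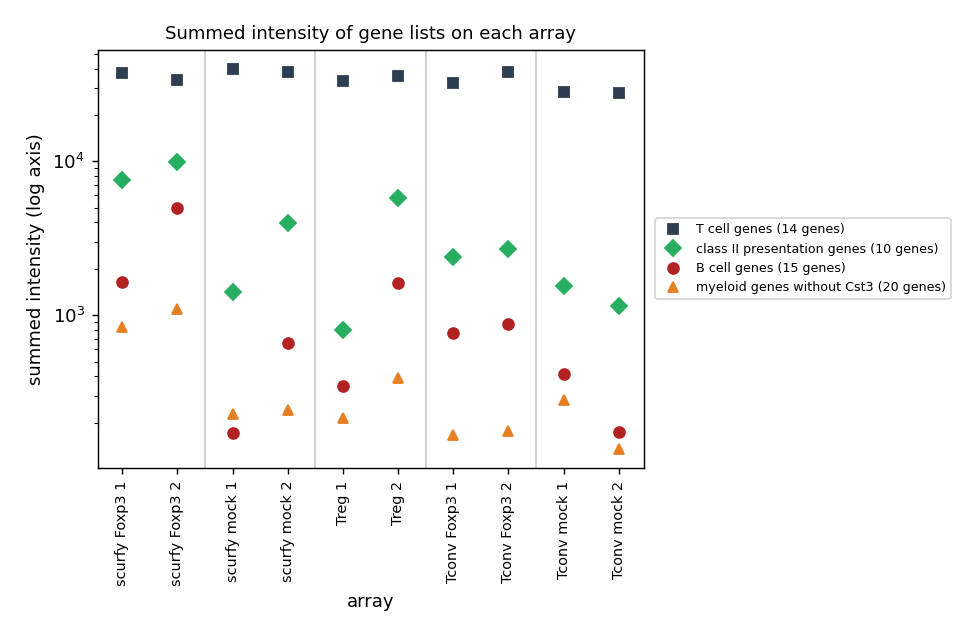
Summed linear intensity of 4 gene lists (log axis) on each of the 10 arrays, with grey lines between groups. T cell genes stay between 27822 and 39771, B cell genes range from 171 to 5001, and the myeloid genes without Cst3 are highest on the scurfy Foxp3 arrays, at 844 and 1101.

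For the tests, intensities were taken as log2(intensity + 16), which understates differences of weak genes, and a gene entered if 2 or more arrays had it above their own median. That kept 11319 genes, among them 13 of the 15 B cell genes and 8 of the 21 myeloid genes. Cr2, the complement receptor CD21, and Bank1, a scaffold of B cell receptor signalling, did not enter and read between 0.815 and 24.9. The 13 myeloid genes that did not enter read between 0.283 and 47.9. They were the lysozymes Lyz1 and Lyz2, the G-CSF receptor Csf3r, the integrin Itgam (CD11b), the endotoxin co-receptor Cd14, the β-glucan receptor Clec7a (Dectin-1), the macrophage antigen Adgre1 (F4/80), the complement subunits C1qa, C1qb and C1qc, the neutrophil proteins S100a8 and S100a9, and Siglech of plasmacytoid dendritic cells. Much of what defines macrophages, monocytes and neutrophils was therefore low on the 10 arrays, and whether such cells were present was not tested otherwise. Genes enter more easily where some group is high, so counts over those that entered are given as description.

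**Figure D2:**
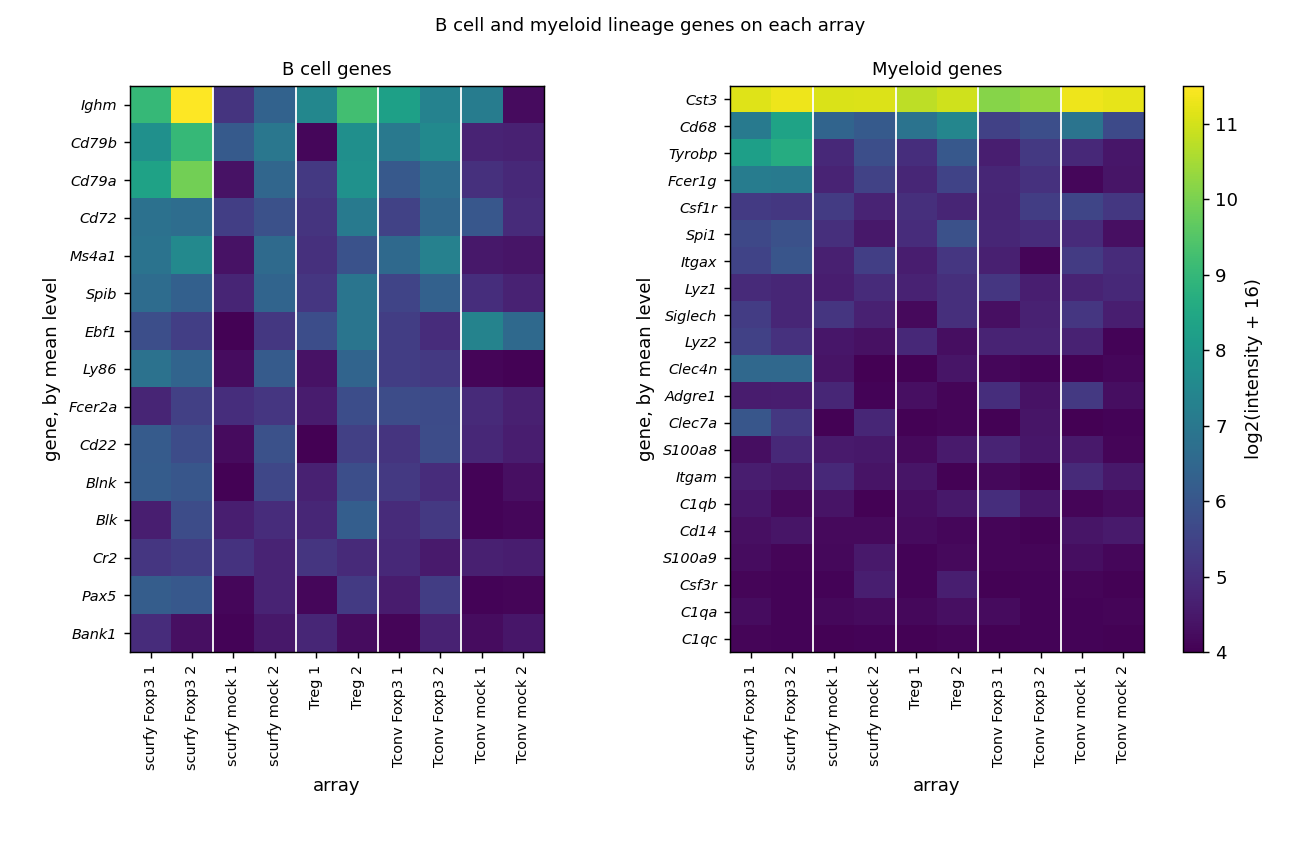
Level of each of the 15 B cell genes (left) and 21 myeloid genes (right) as log2(intensity + 16), by array, with white lines between groups and genes ordered by mean level. Bright cells among the B cell genes lie on the scurfy Foxp3 arrays and on array 2 of the Treg group, and most myeloid genes below Itgax stay near 4, the value of an intensity of 0, apart from Clec4n and Clec7a on the scurfy Foxp3 arrays.

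The subunits of the B cell receptor had the highest levels of the B cell list. Ighm, the immunoglobulin μ heavy chain, read 505 and 2921 on the scurfy Foxp3 arrays, 19.2 and 65.4 on the scurfy mock arrays, 162 and 581 on the Treg arrays, 292 and 145 on the Tconv Foxp3 arrays and 125 and 2.52 on the Tconv mock arrays. Cd79a, the first signalling chain of the receptor, read 302 and 933 on the scurfy Foxp3 arrays, 4.50 and 73.5 on the scurfy mock arrays, 22.0 and 206 on the Treg arrays, 52.8 and 89.2 on the Tconv Foxp3 arrays and 16.7 and 13.1 on the Tconv mock arrays. Cd79b, its partner, read 201 and 500.4 on the scurfy Foxp3 arrays, 53.9 and 111 on the scurfy mock arrays, 1.57 and 197 on the Treg arrays, 114 and 172 on the Tconv Foxp3 arrays and 10.6 and 9.87 on the Tconv mock arrays. For Cd79a and Cd79b the 2 scurfy Foxp3 arrays were the highest of the 10, and for Ighm the second scurfy Foxp3 array and Treg array 2 were. The replicates of a group spread widely, by 2.50 log2 units for Ighm between the scurfy Foxp3 arrays and by 3.60 for Cd79b between the Treg arrays.

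Surface receptors of B cells followed at lower levels. Ms4a1, which encodes CD20, read 99.9 and 169.6 on the scurfy Foxp3 arrays, 4.46 and 80.6 on the scurfy mock arrays, 17.0 and 43.1 on the Treg arrays, 78.1 and 141 on the Tconv Foxp3 arrays and 6.53 and 5.58 on the Tconv mock arrays. Cd72, a co-receptor that restrains the B cell receptor, read 96.2 and 87.3 on the scurfy Foxp3 arrays, 25.9 and 42.1 on the scurfy mock arrays, 19.2 and 119.8 on the Treg arrays, 28.8 and 75.5 on the Tconv Foxp3 arrays and 49.9 and 14.2 on the Tconv mock arrays. Ms4a1 was high on both pairs of arrays labelled Foxp3 and also on scurfy mock array 2, whereas Cd72 was highest on Treg array 2. Cd22, an inhibitory lectin of B cells, ranged from 0.316 to 55.4 over the 10 arrays, Fcer2a, the low-affinity IgE receptor CD23, from 7.84 to 38.7, and Ly86, which encodes the MD-1 partner of the receptor RP105, from 0.473 to 98.6. Of signalling proteins inside the cell, the kinase gene Blk ranged from 0.767 to 59.0 and the adaptor gene Blnk from 0.655 to 57.3.

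Lineage transcription factors did not move as a unit. Spib, a relative of PU.1 in B cells, read 85.3 and 63.5 on the scurfy Foxp3 arrays, 11.3 and 70.2 on the scurfy mock arrays, 20.1 and 105 on the Treg arrays, 30.3 and 63.8 on the Tconv Foxp3 arrays and 15.4 and 10.3 on the Tconv mock arrays. Pax5 read 58.1 and 51.3 on the scurfy Foxp3 arrays, 1.66 and 10.7 on the scurfy mock arrays, 1.36 and 23.0 on the Treg arrays, 7.89 and 25.3 on the Tconv Foxp3 arrays and 0.684 and 1.11 on the Tconv mock arrays, and the 2 scurfy Foxp3 arrays were its highest. Ebf1 read 39.6 and 25.7 on the scurfy Foxp3 arrays, 0.507 and 20.8 on the scurfy mock arrays, 38.5 and 105 on the Treg arrays, 25.2 and 15.1 on the Tconv Foxp3 arrays and 149 and 79.5 on the Tconv mock arrays. Ebf1 differed from the other B cell genes in the Tconv mock group, since it was highest on a Tconv mock array, where Cd79a, Cd79b, Ms4a1 and Pax5 were low.

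Of the myeloid genes, Cst3 (cystatin C, a secreted protease inhibitor that many cell types make) read 2212 and 2525 on the scurfy Foxp3 arrays, 2136 and 2202 on the scurfy mock arrays, 1700.4 and 1983 on the Treg arrays, 1121 and 1265 on the Tconv Foxp3 arrays and 2543 and 2387 on the Tconv mock arrays. It was high on every array and lowest on the Tconv Foxp3 arrays. Cd68, a lysosomal protein of macrophages, read 119 and 313 on the scurfy Foxp3 arrays, 69.9 and 54.3 on the scurfy mock arrays, 101 and 159 on the Treg arrays, 27.9 and 39.4 on the Tconv Foxp3 arrays and 102 and 35.3 on the Tconv mock arrays. Spi1, the transcription factor PU.1, read 33.5 and 42.1 on the scurfy Foxp3 arrays, 16.5 and 6.42 on the scurfy mock arrays, 15.0 and 41.7 on the Treg arrays, 12.2 and 14.8 on the Tconv Foxp3 arrays and 14.1 and 3.84 on the Tconv mock arrays, and Csf1r, the receptor for the macrophage growth factor CSF-1, read 22.9 and 21.0 on the scurfy Foxp3 arrays, 23.8 and 11.0 on the scurfy mock arrays, 16.2 and 11.3 on the Treg arrays, 11.2 and 24.9 on the Tconv Foxp3 arrays and 31.5 and 21.5 on the Tconv mock arrays. For Spi1 both scurfy Foxp3 arrays lay above both scurfy mock arrays, and both Treg arrays above both Tconv mock arrays. For Csf1r both Treg arrays lay below both Tconv mock arrays. Cd68 was highest on the second scurfy Foxp3 array.

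The signalling adaptors and a lectin that couples to them set the scurfy Foxp3 arrays apart. Tyrobp, the adaptor DAP12, read 284 and 383 on the scurfy Foxp3 arrays, 13.3 and 39.5 on the scurfy mock arrays, 15.8 and 50.9 on the Treg arrays, 8.63 and 22.2 on the Tconv Foxp3 arrays and 13.1 and 5.87 on the Tconv mock arrays. Fcer1g, the adaptor FcRγ, read 127 and 118 on the scurfy Foxp3 arrays, 10.7 and 29.0 on the scurfy mock arrays, 11.9 and 29.2 on the Treg arrays, 11.9 and 17.3 on the Tconv Foxp3 arrays and 1.37 and 5.38 on the Tconv mock arrays. Clec4n, which encodes Dectin-2, a receptor for fungal mannans that signals through FcRγ, read 76.7 and 76.2 on the scurfy Foxp3 arrays, 5.16 and 0.301 on the scurfy mock arrays, 0.449 and 5.54 on the Treg arrays, 1.50 and 0.926 on the Tconv Foxp3 arrays and 0.474 and 1.46 on the Tconv mock arrays. For all 3 genes the 2 scurfy Foxp3 arrays lay far above the other 8, of which none passed 50.9. Itgax, the integrin CD11c of dendritic cells, ranged from 1.09 to 47.3, again with the 2 scurfy Foxp3 arrays on top.

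In all, the 2 scurfy Foxp3 arrays lay above the other 8 for 5 of the 15 B cell genes (Cd79a, Cd79b, Blnk, Pax5 and Cr2) and for 6 of the 21 myeloid genes (Tyrobp, Fcer1g, Lyz2, Itgax, Clec4n and Clec7a). The same held for 407 of the 11319 genes tested. Cr2, Lyz2 and Clec7a are among the genes too weak to be tested, with at most 47.9 on any array, so that base leaves them out. Among the 13 B cell genes tested the pattern held for Cd79a, Cd79b, Blnk and Pax5. Among the 8 myeloid genes tested it held for Tyrobp, Fcer1g, Itgax and Clec4n.

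**Figure D3:**
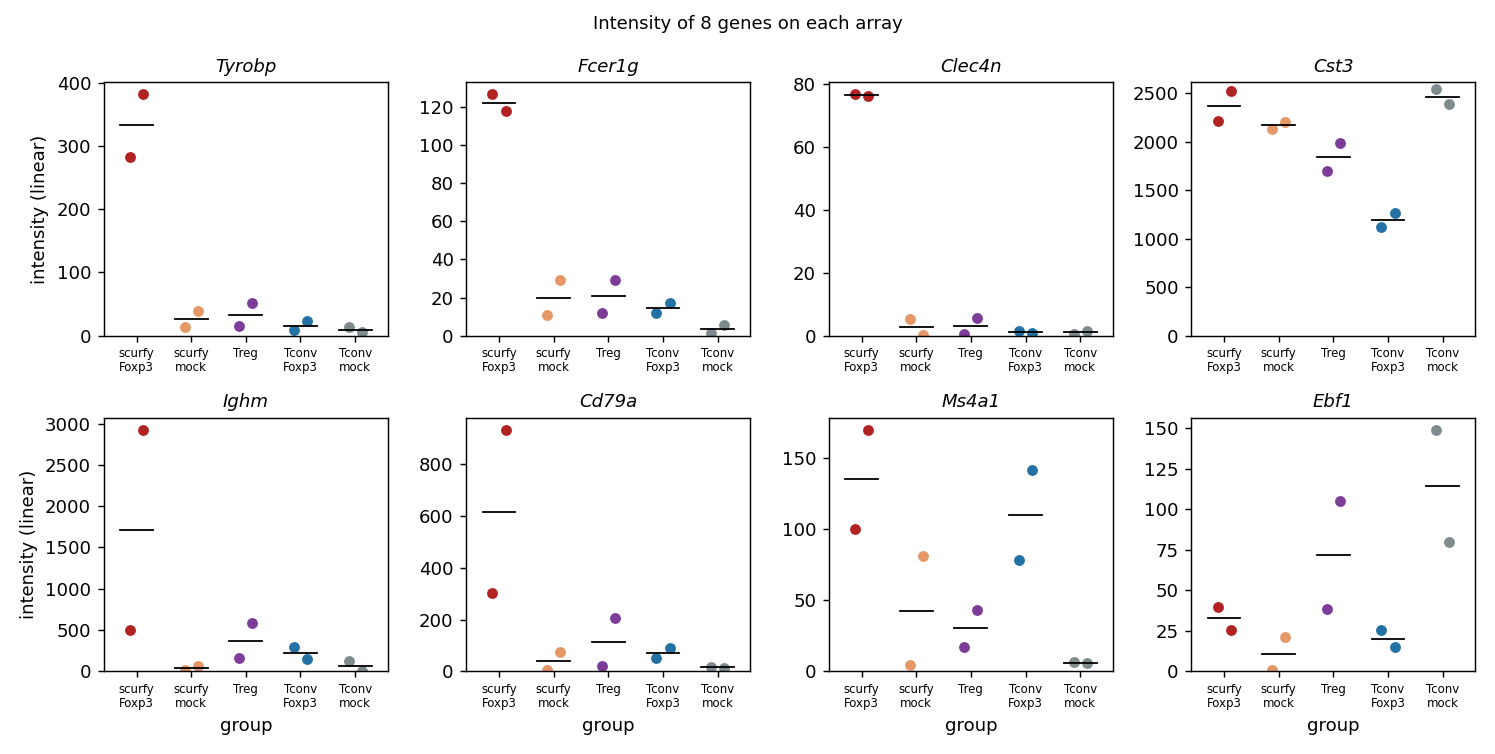
Linear intensity of 8 genes on each array by group, with points for single arrays and a bar for the mean of the 2 arrays. Tyrobp, Fcer1g and Clec4n are high on both scurfy Foxp3 arrays and low elsewhere, Ighm and Cd79a differ between the replicates of several groups, and Ebf1 is highest on Tconv mock array 1.

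Promoter sequences are shown for Cd79a and Fcer1g, members with large differences, and for Cd22 and Blnk, whose windows held a motif searched for, to lay out how such letters lie near a start. RefSeq windows on GRCm38.p6, from 250 bases before to 50 after the start on the gene's strand, were found for 25 of the 36 genes. Capitals mark matches to TCCCNNGGG (EBF1), GAGGAAGT (PU.1), ATTTGCAT (octamer) or TTGCGCAA (C/EBP) on either strand, where N is any base. The windows are chr7:24897247-24897546 on the plus strand for Cd79a, and on the minus strand chr7:30878979-30879278 for Cd22, chr19:40994172-40994471 for Blnk and chr1:171234300-171234599 for Fcer1g.
Cd79a: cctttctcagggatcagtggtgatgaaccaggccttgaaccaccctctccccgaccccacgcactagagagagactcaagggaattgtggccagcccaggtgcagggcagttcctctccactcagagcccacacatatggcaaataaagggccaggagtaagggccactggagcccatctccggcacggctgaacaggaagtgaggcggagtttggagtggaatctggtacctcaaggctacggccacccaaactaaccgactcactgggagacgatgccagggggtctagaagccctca
Cd22: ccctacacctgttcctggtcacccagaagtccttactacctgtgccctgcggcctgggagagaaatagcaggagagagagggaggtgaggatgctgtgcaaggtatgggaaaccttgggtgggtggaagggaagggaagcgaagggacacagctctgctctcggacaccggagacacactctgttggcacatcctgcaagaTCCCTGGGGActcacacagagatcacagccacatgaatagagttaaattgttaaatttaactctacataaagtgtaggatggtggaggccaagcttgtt
Blnk: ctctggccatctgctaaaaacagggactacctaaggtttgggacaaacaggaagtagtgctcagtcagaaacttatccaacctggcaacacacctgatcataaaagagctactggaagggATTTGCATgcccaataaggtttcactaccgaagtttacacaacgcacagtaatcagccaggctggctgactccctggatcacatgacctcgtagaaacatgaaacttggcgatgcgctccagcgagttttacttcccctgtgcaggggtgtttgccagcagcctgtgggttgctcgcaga
Fcer1g: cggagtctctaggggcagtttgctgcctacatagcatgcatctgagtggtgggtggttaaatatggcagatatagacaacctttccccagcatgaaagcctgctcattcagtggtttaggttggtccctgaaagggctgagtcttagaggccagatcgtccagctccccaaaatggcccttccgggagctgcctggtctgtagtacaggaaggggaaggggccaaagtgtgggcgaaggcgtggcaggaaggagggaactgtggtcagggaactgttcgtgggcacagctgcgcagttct

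Cd22 held overlapping EBF1 matches on the 2 strands, Blnk held an octamer, and Cd79a and Fcer1g held none of the 4 motifs. EBF1 letters occurred in 1 of 14 windows of B cell genes and in 0 of 15 windows of myeloid genes, against 6.56% of all 32851 windows. PU.1 letters occurred in 1 of 14 and 2 of 15, against 3.20%, and the octamer in 1 of 14 and 0 of 15, against 1.74%. C/EBP letters occurred in neither list, against 0.183% of all windows. The PU.1 matches were in Cd72, C1qc and S100a8. These counts are descriptions of exact letters in the windows. A site that differs from them by a single letter was not counted.

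Scurfy Foxp3 against scurfy mock asked what set the arrays labelled Foxp3 apart among GFP+ cells that lack working Foxp3 of their own. All 13 B cell genes and all 8 myeloid genes that were tested had positive differences, and 1 of them, Clec4n, passed the test. Its difference was 2.32 on the log2 scale (SE 0.26, adjusted p = 0.0290 by limma), a ratio of 4.98 in intensity + 16. It entered the test only through the 2 scurfy Foxp3 arrays, so it had to differ. limma called 4 of 11319 genes here, or 0.0353%, all higher, and the other 3 were the chemokine gene Cxcl16, Pxdc1 and the collagenase gene Mmp13. Tyrobp differed by 3.10 (SE 0.45, adjusted p = 0.111) and Fcer1g by 2.00 (SE 0.35, adjusted p = 0.216), with 95% intervals of 2.08 to 4.12 and 1.22 to 2.78, and neither passed. Clec4n kept its call without scurfy mock array 2 (2.13), where Tyrobp (3.56) and Fcer1g (2.37) were called too. The call ended without scurfy mock array 1 (2.50, adjusted p = 0.196) and without any single Treg, Tconv Foxp3 or Tconv mock array (2.32, adjusted p from 0.0751 to 0.123), and without either scurfy Foxp3 array the gene did not enter.

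Among B cell genes the largest differences in this comparison were those of Ighm (4.53, SE 1.08, adjusted p = 0.610) and Cd79a (3.68, SE 0.90, adjusted p = 0.625). Of the 13, 0 passed in limma and 5 had an unadjusted p under 0.05, against 481 of all 11319 genes. The median difference was 1.27 over the 13 B cell genes and 1.22 over the 8 myeloid genes, against -0.02 over all genes, of which 47.7% were positive. Over all 21 myeloid genes it was 0.15. Both scurfy Foxp3 arrays lay above both scurfy mock arrays for 9 of 13 B cell genes and 7 of 8 myeloid genes, against 14% of all genes. The counts of positive differences were the same after quantile normalization and at a common 75th percentile. The B cell median was 0.50 without scurfy mock array 1 and 2.00 without scurfy mock array 2, the array on which B cell genes were higher than on its replicate.

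**Figure D4:**
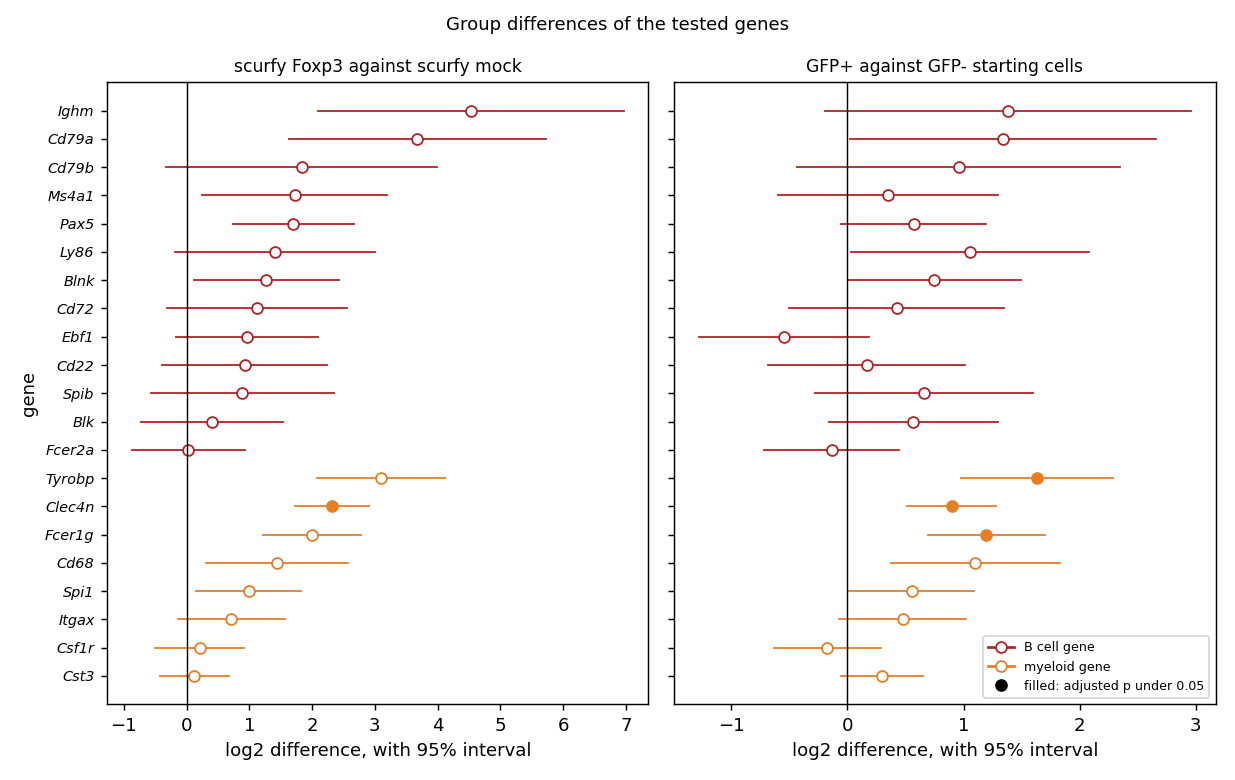
Difference of group means on the log2(intensity + 16) scale, with its 95% interval from limma, for the 21 genes that were tested, in scurfy Foxp3 against scurfy mock (left) and GFP+ against GFP- starting cells (right). All 21 points on the left lie above 0, and the filled points are Clec4n on the left and Tyrobp, Clec4n and Fcer1g on the right.

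Tconv Foxp3 against Tconv mock made the same comparison in GFP- cells. Of the 21 genes, 0 passed in limma, where 0.0883% of all genes were called. An unadjusted p under 0.05 was found for 4 of 13 B cell genes and 1 of 8 myeloid genes, against 1577 of all 11319 genes. Cd79b differed by 2.57 (SE 0.95, adjusted p = 0.303) and Ms4a1 by 2.46 (SE 0.65, adjusted p = 0.198). Differences were positive for 12 of 13 B cell genes, with a median of 0.98, against 72.4% of all genes with a median of 0.26, and the exception was Ebf1 (-1.81, SE 0.50, adjusted p = 0.210). Both Tconv Foxp3 arrays lay above both Tconv mock arrays for 11 of the 13, against 47.6% of all genes. Myeloid genes were divided, with 4 of 8 positive (3 after quantile normalization), a median of -0.16 and 1 of 8 above on every array. Cst3 differed by -1.04 (SE 0.24, adjusted p = 0.169) and Itgax by -0.73 (SE 0.38, adjusted p = 0.419).

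The difference between those 2 effects, scurfy minus Tconv, was tested as an interaction, and 0 genes were called in limma (0% of 11319), with 911 at an unadjusted p under 0.05. All 8 myeloid genes were on the positive side, with a median of 1.39 (0.55 over all 21), against 30.3% of all genes with a median of -0.28. The 8 stayed positive under both scalings, and 6 of them had an unadjusted p under 0.05. The 8 include Clec4n (2.29, SE 0.37, adjusted p = 0.213). It entered through the scurfy Foxp3 arrays alone, which favoured a positive sign. Tyrobp differed by 2.82 (SE 0.64, adjusted p = 0.422). B cell genes were divided, with 8 of 13 positive and a median of 0.20. Ebf1 differed by 2.77 (SE 0.71, adjusted p = 0.463) and Ighm by 2.41 (SE 1.53, adjusted p = 0.669). The B cell median was -0.62 without scurfy mock array 1 and 1.02 without scurfy mock array 2.

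Treg against Tconv mock compared cells that started GFP+ and GFP- in DEREG mice, both with the empty virus. It shares the Tconv mock arrays with the comparison above and with the next. Of the 21 genes, 0 passed in limma, where 1.09% of all genes were called. An unadjusted p under 0.05 was found for 2 of 13 B cell genes and 1 of 8 myeloid genes. That is close to the share of all genes, 1744 of 11319. Ighm differed by 2.67 (SE 1.08, adjusted p = 0.283) and Cd79a by 1.57 (SE 0.90, adjusted p = 0.456). Cd79a differed by 0.30 without Treg array 2 and by 2.85 without Treg array 1, and Ighm by 1.20 without Tconv mock array 2 and by 4.14 without Tconv mock array 1. Differences were positive for 12 of 13 B cell genes (11 under either scaling), with a median of 1.05, against 64.8% of all genes with a median of 0.19. Both Treg arrays lay above both Tconv mock arrays for 8 of the 13 and for 3 of 8 myeloid genes, against 35.2% of all genes. Fcer1g (0.88, SE 0.35, adjusted p = 0.267) and Cd68 (0.88, SE 0.50, adjusted p = 0.453) led the myeloid genes, whose median was 0.47 with 5 of 8 positive, and 0.060 over all 21. The B cell median was 0.17 without Treg array 2 and 1.62 without Treg array 1.

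Scurfy mock and Tconv mock differ in starting GFP state and also in the scurfy mutation, as the descriptions were read. Their comparison gave 0 of 21 calls in limma, where 0.574% of all genes were called. In it 1 of 13 B cell genes and 1 of 8 myeloid genes had an unadjusted p under 0.05, against 1562 of all 11319 genes. The largest difference was that of Ebf1, at -2.35 (SE 0.50, adjusted p = 0.102). At a common 75th percentile Ebf1 passed, at -2.58 (adjusted p = 0.0383). Cd79b differed by 1.84 (SE 0.95, adjusted p = 0.419). Differences were positive for 12 of 13 B cell genes (10 under either scaling), with a median of 0.47, and for 5 of 8 myeloid genes (4 under either scaling), with a median of 0.07, against 68.0% of all genes with a median of 0.22. Without scurfy mock array 2 the B cell median was -0.09, and without scurfy mock array 1 it was 1.14. Leaving out Tconv mock array 2 gave a myeloid median of -0.19, and leaving out array 1 of that group gave 0.28. Both scurfy mock arrays lay above both Tconv mock arrays for 5 of 13 and 2 of 8 genes, against 38.8% of all genes. Fcer1g (0.85, SE 0.35, adjusted p = 0.329) and Tyrobp (0.68, SE 0.45, adjusted p = 0.532) had the largest myeloid differences.

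GFP+ against GFP- starting cells set the mean of the scurfy Foxp3, scurfy mock and Treg groups against the mean of both Tconv groups. The scurfy groups are on the GFP+ side only, so starting GFP state and the scurfy mutation are mixed in it. Tyrobp, Fcer1g and Clec4n were called higher, 3 of the 8 myeloid genes tested, where 4.65% of all genes were called. All 3 entered only through GFP+ arrays and lay below the array median on every Tconv array. The way they entered thus favoured higher values in GFP+ cells, and the share of 3 of 8 in part restates the filter. Clec4n entered only through 2 GFP+ arrays, both scurfy Foxp3, so for it the filter favoured a higher value most. Tyrobp was higher by 1.63 (SE 0.29, adjusted p = 0.0196), Fcer1g by 1.19 (SE 0.22, adjusted p = 0.0224) and Clec4n by 0.90 (SE 0.17, adjusted p = 0.0230). Every GFP+ array lay above every GFP- array for 0 of the 21 genes, against 3.6% of all genes. Without the scurfy Foxp3 arrays, an alternative chosen after seeing the data, none of the 3 was called, and the differences were 0.63 for Tyrobp (adjusted p = 0.311), 0.53 for Fcer1g (adjusted p = 0.263) and 0.13 for Clec4n (adjusted p = 0.696). Each of the 3 calls also ended without any single Tconv Foxp3 or Tconv mock array, with adjusted p from 0.0530 to 0.109. Without Treg array 2 those of Fcer1g (adjusted p = 0.0559) and Clec4n (adjusted p = 0.0598) ended, as did that of Fcer1g without scurfy Foxp3 array 1 (adjusted p = 0.0513), and Clec4n did not enter without either scurfy Foxp3 array.

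Of the B cell genes, 0 passed in GFP+ against GFP- cells in limma, and 3 of 13 had an unadjusted p under 0.05. That is close to the share of all genes, 2458 of 11319. Ighm differed by 1.38 (SE 0.70, adjusted p = 0.285) and Cd79a by 1.34 (SE 0.58, adjusted p = 0.225). Without Treg array 1, Cd79b was called (1.56, adjusted p = 0.0337). The median was 0.57 over the B cell genes and 0.73 over the 8 myeloid genes (0.16 over all 21), against 0.08 over all genes. Differences were positive for 11 of 13 and 7 of 8 genes under all 3 scalings, against 57.7% of all genes in the unscaled values.

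In 2 of the 5 groups all tested B cell genes were higher on array 2. On Treg array 2 all 13 tested B cell genes read higher than on Treg array 1, 12 of them by over 1 log2 unit, with a median gap of 1.44. Of all genes 78.9% were higher there, with a median gap of 0.34, so values were higher there in general too. On scurfy mock array 2 all 13 also read higher than on array 1, 8 of them by over 1 log2 unit, with a median gap of 1.21, against 46.7% and -0.04 over all genes. Myeloid genes were divided in the scurfy mock pair, with 4 of 8 higher on array 2. In scurfy Foxp3 4 of 13 B cell genes were over 1 log2 unit higher on array 2, among them Ighm and Cd79a, and the median gap was -0.12, against -0.41 over all genes. The median gap was 0.54 in Tconv Foxp3, against 0.11 over all genes, and -0.17 in Tconv mock, against -0.06, where Ighm was lower on array 2 by -2.93.

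Other genes of the 2 lineages and of other cell types were counted in the same tests. Of 17 further B cell genes tested, Cd40, a costimulatory receptor of antigen-presenting cells, was called higher in GFP+ against GFP- cells (1.15, SE 0.20, adjusted p = 0.0154). Of 17 further myeloid genes tested, 3 were called higher there, namely Ltf, which encodes lactoferrin (1.27, SE 0.22, adjusted p = 0.0175), Mpeg1, which encodes the pore-forming perforin-2 (1.83, SE 0.37, adjusted p = 0.0294), and the lysosomal protease gene Ctss (1.46, SE 0.30, adjusted p = 0.0320). Of 9 class II genes tested, H2-Ab1 was called higher there (1.10, SE 0.25, adjusted p = 0.0444). Ltf passed the filter only through the 2 Treg arrays, so the way it entered favoured a higher value in GFP+ cells. Mpeg1 entered only through GFP+ arrays and read at most 4.32 on any Tconv array, so the way it entered favoured a higher value in GFP+ cells. Without the scurfy Foxp3 arrays the calls of Cd40 (0.70, adjusted p = 0.0870), H2-Ab1 (0.67, adjusted p = 0.237), Mpeg1 (1.53, adjusted p = 0.0897) and Ctss (1.49, adjusted p = 0.0803) ended. Of 14 T cell genes, Thy1 was called higher (0.82, SE 0.16, adjusted p = 0.0256) and Cd6 lower (-0.77, SE 0.17, adjusted p = 0.0388), and Cd6 was not called without the scurfy Foxp3 arrays (-0.60, adjusted p = 0.102). With 1 array left out in turn, H2-Ab1 and Cd6 were called in 1 of 10 fits each, Ctss in 3, Mpeg1 in 4, Thy1 in 5 and Cd40 in 6 of 10, and Ltf in 4 of 8. All 7 calls ended without any single Tconv Foxp3 or Tconv mock array.

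In the other comparisons the further lists gave a single call, Ltf in Treg against Tconv mock (3.38, SE 0.34, adjusted p = 0.00389), where it had to differ by the way it entered. Ltf read 2.60 and 1.35 on the scurfy Foxp3 arrays, 2.63 and 12.9 on the scurfy mock arrays, 116 and 224 on the Treg arrays, 0.663 and 2.94 on the Tconv Foxp3 arrays and 1.20 and 0.960 on the Tconv mock arrays. It was high on the Treg arrays and near background elsewhere, whereas the neutrophil genes S100a8 and S100a9 stayed at or below 12.95 and 6.80 on the 10 arrays. In scurfy Foxp3 against scurfy mock the smallest p of the further myeloid genes belonged to Fcgr2b, the inhibitory IgG receptor (1.76, SE 0.28, adjusted p = 0.176), and Clec4d, a neighbour of Clec4n in the same lectin family (2.71, SE 0.45, adjusted p = 0.197). Of the class II genes it belonged to H2-Aa (4.05, SE 1.41, adjusted p = 0.999). All 6 CD8 and NK cell genes tested had negative differences there, with 0 called and 0 at an unadjusted p under 0.05, and a median of -0.92.

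The choice of probe set mattered for some of the genes. The 36 genes had 61 probe sets, and 26 genes had a single one. Ighm had 11, which disagreed in sign in every comparison. All its negative differences came from weak probe sets, which read at most 9.03, 30.8 and 18.9 on any array. The remaining ones had positive differences in all 6 comparisons. Its chosen probe set read 65.4 on scurfy mock array 2 and 162 on Treg array 1, where another read 501 and 1.19. Csf1r, C1qb and Lyz1 disagreed in 4, 4 and 3 of the 6 comparisons, and Cd22, Pax5 and Ebf1 in 1 each. All 5 Ebf1 probe sets were lower in scurfy mock and in Tconv Foxp3 than in Tconv mock. Both Clec4n probe sets read high on the scurfy Foxp3 arrays, and the other of them read 42.2 and 30.7 there against at most 4.13 on the remaining 8.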

How the data were processed

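The deposited values are a probe set intensity per array on a linear scale, made by the authors with Affymetrix Expression Console, per the submitters' processing notes. Its version, summary method and scaling: not given in the sources used here. Arrays were hybridised with biotinylated cDNA from the NuGEN FL-Ovation kit, per the labels' protocols. Of 45101 probe sets, 34958 had a single gene symbol, 932 several and 9211 none. Genes were tested on log2(intensity + 16) in a single fit of 10 arrays by lmFit and eBayes of limma 3.58.1, run under R 4.3.3 (residual degrees of freedom 5, prior 4.09, prior SD 0.342 on the log2 scale). p-values are two-sided and adjusted by Benjamini-Hochberg over 11319 genes, with calls under 0.05.

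Arrays were put in groups by the sample titles. The genes and lists were chosen with earlier results of these data known. The rule for values on every array took called genes, and in each list the 6 highest by mean and the 4 of largest range. Pax5, Ltf and the other probe sets were added after their values were seen. Differences are given for called genes and the 2 largest of each list in each comparison, and for further lists for called genes and those of smallest p. Their counts were: other B cell genes 20 of 24 with a probe set, class II 10 of 11, other myeloid 36 of 40, T cell 14 of 16, CD8 and NK 9 of 10, mast cell and basophil 8 of 9, red cell and platelet 6 of 9. In the last 2 lists 1 gene each was tested, Hdc and Alas2, and neither was called. The test was checked on simulated data, with changes added to the scurfy Foxp3 group. It recovered 3 of 67 changes of 1 log2 unit, 34 of 67 of 2 units and 57 of 66 of 3 units. Of its 98 calls, 4 were false. A gene that did not pass may thus still differ, above all by 1 log2 unit or less. The number of arrays limits precision. The replicate arrays of a group shared 0 identical gene values.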

Additional observations from a re-analysis of the deposited data

How the results depend on the processing

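Below, scurfy Foxp3 stands for its comparison with scurfy mock, and Treg, scurfy mock and Tconv Foxp3 for theirs with Tconv mock. Scaling gave 6 calls in Tconv Foxp3 against mock after quantile normalization, and 199 in Treg, 821 in GFP+ against GFP- cells and 1 B cell call (Ebf1) in scurfy mock against Tconv mock at a common 75th percentile. Unscaled, 100 of 123 Treg calls, 50 of 65 scurfy mock calls, 6 of 10 Tconv Foxp3 calls and 392 of 526 GFP calls were higher. As shares these are 81.3%, 76.9%, 60% and 74.5%, against 57.9%, 70.4%, 16.7% and 58.4% after quantile normalization and 59.8%, 70.8%, 26.7% and 54.7% at a common 75th percentile. Quantile normalization moved the median of all genes from 0.26 to 0.0064 in Tconv Foxp3 and from 0.22 to -0.02 in scurfy mock against Tconv mock. A pseudocount of 1 gave 56 calls in Treg, 35 in scurfy mock, 315 in GFP+ against GFP- cells with 1 myeloid gene, and 0 in scurfy Foxp3 against mock with 0 myeloid genes. B cell medians were then 2.00 in Treg, 2.68 in Tconv Foxp3 and 2.46 in scurfy Foxp3, and myeloid medians 0.88 in Treg, 1.70 in scurfy Foxp3, 1.82 in the interaction and 1.24 in GFP+ cells. A pseudocount of 64 gave 41 calls in scurfy mock and myeloid medians of 0.75 in scurfy Foxp3, 1.00 in the interaction and 0.34 in GFP+ cells. Clec4n then lost its call in scurfy Foxp3 (1.07, adjusted p = 0.264) and Tyrobp gained one (2.14, adjusted p = 0.0361). Without a filter there were 57 calls in Treg, 28 in scurfy mock, 3 in Tconv Foxp3 and 317 in GFP+ cells. Over all 21 myeloid genes, the weak ones included, the median was then 0.060 in Treg, 0.15 in scurfy Foxp3, 0.55 in the interaction and 0.16 in GFP+ cells. A filter at the 75th percentile dropped Clec4n and gave 2 calls in scurfy Foxp3 with 0 myeloid genes, 1 myeloid call (Tyrobp) in GFP+ cells, B cell medians of 2.12 in Tconv Foxp3, 3.68 in scurfy Foxp3, 2.22 in the interaction and 1.34 in GFP+ cells, and myeloid medians of 1.61 in scurfy Foxp3 and 1.99 in the interaction. The mean of probe sets gave 5 calls in Tconv Foxp3. A fit on the compared groups alone gave 34 calls in Treg, 1 in scurfy mock, 27 in Tconv Foxp3 with 1 B cell gene (Cd79b), and 0 in scurfy Foxp3 with 0 myeloid genes. Without the scurfy Foxp3 group, chosen after seeing the data, GFP+ against GFP- cells gave 222 calls with 0 myeloid genes and a myeloid median of 0.27. Leaving out control probe sets, also chosen afterwards, moved no result by over 1.5 times. With the replicate number as a block there were 81 calls in Treg, 42 in scurfy mock and 0 in scurfy Foxp3, with 0 myeloid genes there (Clec4n 2.32, adjusted p = 0.0689). Same-numbered arrays correlated between -0.17 and 0.18 in their deviations from group means, with 2 of 10 pairs over 0.1. The main fit used no pairing by number. Whether same-numbered arrays shared a batch or culture was not tested. Where a cause is not named, the cause was not tested.

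Leaving out 1 array in turn, with the lone array assumed to vary like the other groups, gave 17 to 215 calls in Treg, 5 to 232 in scurfy mock, 0 to 19 in Tconv Foxp3, 0 to 50 in scurfy Foxp3, 0 to 28 in the interaction and 97 to 769 in GFP+ against GFP- cells. Myeloid calls ran from 0 to 3 in scurfy Foxp3 and from 0 to 3 in GFP+ cells, and B cell calls from 0 to 1 in scurfy mock (Ebf1) and from 0 to 1 in GFP+ cells (Cd79b). B cell medians ran from 0.17 to 1.62 in Treg, 0.50 to 2.00 in scurfy Foxp3 and -0.62 to 1.02 in the interaction, and myeloid medians from 0.80 to 1.42 in scurfy Foxp3 and 1.11 to 1.76 in the interaction. Of 33 differences of single genes refitted under these alternatives, 0 changed sign. They had been picked as called or largest, so a change of sign was unlikely, and lost calls are not counted in it. Weak signal over background limits most myeloid genes, and the 2 arrays of each group limit all of them.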

Other observations

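The genes with the largest gap between the 2 arrays of a group included other transcripts of B cells and antigen-presenting cells. Between the Treg arrays, array 2 was higher in the chemokine gene Ccl22 (6.76 log2 units), the class II genes H2-Eb1 (4.51), H2-DMb2 (3.98) and H2-Ea (3.93), the invariant chain Cd74 (4.00), the actin-bundling gene Fscn1 (4.00), the immunoglobulin J chain Jchain (3.87), Gzma (4.24), Ifitm1 (4.20) and Epas1 (4.11). Between the scurfy mock arrays, array 2 was higher in Ccl3 (7.96), Crabp2 (7.52), Akr1c18 (6.18), Slc13a3 (5.76), Pdpn (5.60) and the immunoglobulin light chain genes Igkv8-30 (5.73) and Igk (5.59), and lower in Ifit1bl1 (-6.82), Rsad2 (-6.29) and the T cell gene Trat1 (-5.66).

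Between the scurfy Foxp3 arrays, array 2 was higher in the light chain genes Igkv6-15 (3.58) and Iglv1 (2.85), and in Retnla (3.46), Klk4 (2.99), E130308A19Rik (2.96) and Ccl1 (2.93), and lower in Myh3 (-2.95), Macf1 (-2.95), Rnf213 (-2.94) and Nipbl (-2.83). Neither of the Tconv pairs had an immunoglobulin or class II gene among its 10 largest gaps. Those gaps were led by Src (-4.23) and Gzma (-4.10) in Tconv Foxp3, and by the cytokine genes Il4 (4.93), Il5 (4.88) and Il13 (4.56) in Tconv mock. These are differences between single arrays, with no test.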
